A study of Macaca fascicularis with 16 samples.

Results

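Kruppel-like factors (KLFs) are zinc-finger transcription factors that bind GC-rich and CACCC elements, and their transcripts are abundant in circulating leukocytes. They are grouped by the partners they recruit. KLF2, KLF4, KLF6 and KLF7 are mostly activators, KLF3 and KLF12 are repressors that bind the corepressor CtBP, and KLF9, KLF10, KLF11 and KLF13 carry a domain that binds the SIN3 corepressor. In lymphocytes KLF2 holds naive T cells quiescent and in circulation, and in myeloid cells KLF4 takes part in monocyte differentiation.

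The 10 genes described here were KLF2, KLF3, KLF4, KLF6, KLF7, KLF9, KLF10, KLF11, KLF12 and KLF13, chosen by symbol from the 23602 gene symbols of the deposited count tables. Each had 1 entry in the tables and 1 macaque gene of the same symbol in the RefSeq annotation, and all 10 passed the filter on low counts that left 11545 genes to test. Peripheral blood mononuclear cells (PBMC, the lymphocytes and monocytes left after density separation of blood) came from 4 Mauritian-origin cynomolgus macaques named LG04, LG11, LG12 and LG15. Blood was drawn from each before the agent NKTT320 and then 30 minutes, 2 hours and 1 day later, which gives 16 libraries with 4 at each time. NKTT320 is an antibody that binds the rearranged receptor shared by iNKT (invariant natural killer T) cells, and the study was made to characterise iNKT activation by it in the living animal. All 4 animals received NKTT320, so the agent cannot be told apart from the passage of time or the repeated bleeding. Age, sex and dose were not given in the sources used here.

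Library totals ranged from 1417467 to 8582852 counts, and 3 counts, the limit a count of 0 allows, corresponded to 0.35 to 2.12 CPM (counts scaled to a common library size). Globin transcripts took 0.025% to 48.7% of a library, highest in LG04 and lowest in LG12. For that reason the CPM values given here were scaled by edgeR's TMM factors (0.46 to 1.27), which set each library's size from the bulk of its genes. All 19 T-cell markers had counts in all 16 libraries and 15 of 17 monocyte markers did, the cell types of the PBMC label. Platelet, red-cell and neutrophil transcripts also differed widely between libraries. The 1 day libraries of LG04 and LG15 were the nearest of all pairs from different animals, with a chi-square per gene of 11.3. The 1 day library of LG04 lay at 88.1 to 158 from the others of LG04. That of LG15 lay at 36.9 to 139 from the others of LG15. The 10 KLF genes together took 0.111% to 0.346% of a library's counts, and each had 29 to 6643 counts in a library, so that none approached the limit of detection. In bulk RNA, fewer cells of a type and less RNA per cell cannot be told apart.

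Levels of different genes were compared per transcript length, with the deposited FPKM values. KLF6, a broadly expressed activator known from inflammatory macrophages, had the highest FPKM of the 10 in 16 of 16 libraries. Its median over the 16 libraries was 153 FPKM, with a range of 52.5 to 208 FPKM. The FPKM values were not rescaled by TMM, and the lowest was that of LG04 at 2 hours, where globin took 48.7%. As TMM-scaled CPM the range of KLF6 was 387 to 871, or 2.25-fold. KLF6 stood a median of 1.76-fold above KLF13, which came next at a median of 81.2 FPKM. KLF13, first described as a late activator of the chemokine gene CCL5 in T cells, exceeded KLF3 in 10 of 16 libraries. KLF3 (median 71.8 FPKM) in turn exceeded KLF2 (median 71.7 FPKM) in 10 of 16. The order of KLF13, KLF3 and KLF2 therefore differed from library to library, and each of them stood between rank 2 and rank 5. KLF2 exceeded KLF12 (median 46.9 FPKM) in 15 of 16 libraries.

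The lower part of the order was less settled. KLF4 had a median of 28.3 FPKM, and its range of 5.27 to 81.2 FPKM carried it from rank 4 to rank 10. KLF12 exceeded it in 9 of 16 libraries. KLF7 (median 23.9 FPKM) and KLF9 (median 22.9 FPKM) changed places with the summary used, since KLF9 had the higher mean (25.9 against 22.3 FPKM) and the higher level in 11 of 16 libraries. KLF11 had a median of 17.8 FPKM, and KLF10, at a median of 11.7 FPKM, was last in 9 of 16 libraries. Human gene models were used for the lengths and the counting, and reads that differ between the species could change these levels gene by gene, which was not tested.

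**Figure D1:**
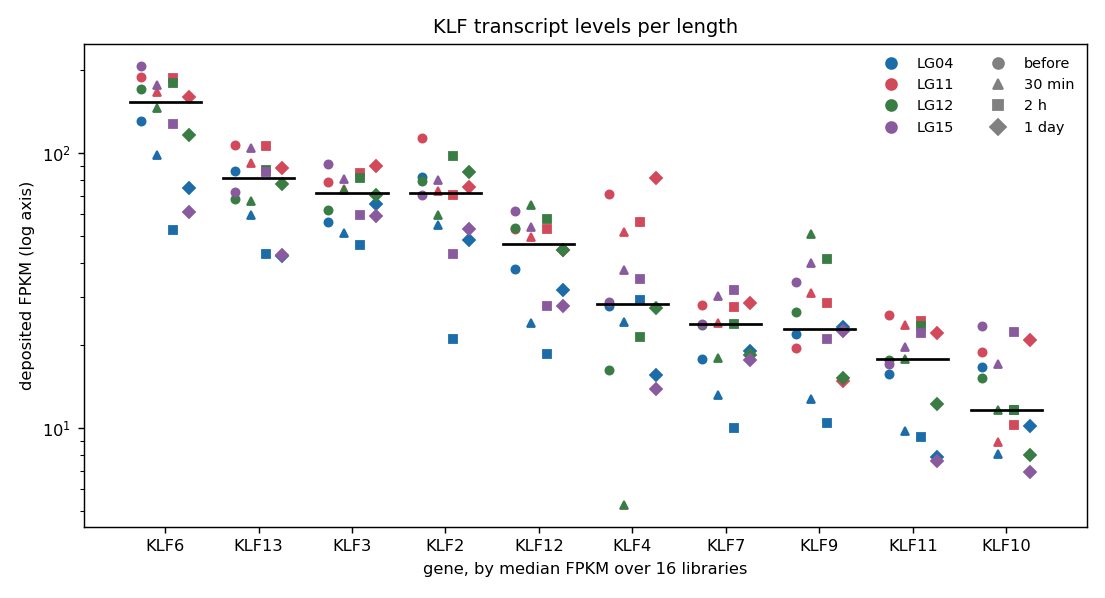
Deposited FPKM (log axis) of the 10 KLF genes in 16 libraries, ordered by median from left to right. Colours are animals, symbols are times and bars are medians. KLF6 is highest in every library, KLF13, KLF3 and KLF2 overlap, and KLF4 runs from 5.27 to 81.2 FPKM.

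The first comparison asked how the KLF transcripts stood at each time after NKTT320 relative to the same animals before it. None of the 10 passed edgeR's quasi-likelihood test at a Benjamini-Hochberg adjusted p of 0.05 over all 11545 genes in any of the 6 comparisons between times. The share of all genes called was itself small. It was 0% at 30 minutes, 0% at 2 hours and 0.225% (26 genes) at 1 day, each against the samples before NKTT320. Between later times it was 0% for 2 hours against 30 minutes, 0.0433% (5 genes) for 1 day against 30 minutes and 0.104% (12 genes) for 1 day against 2 hours. The test of any difference among the 4 times called 0.104% of genes (12), and no KLF. At an unadjusted p under 0.05 the members numbered 0 at 30 minutes and 0 at 2 hours against before NKTT320, and 0 for 2 hours against 30 minutes. They numbered 2 in each comparison of 1 day with an earlier time, KLF6 and KLF11 every time, where 12.6% to 13.6% of all genes had such a p. With DESeq2's test 1 member passed at 1 day against before NKTT320 (KLF6, where 3.46% of all genes were called) and 1 at 1 day against 2 hours (KLF11, where 0.987% were called). No member passed DESeq2's test in the other 4 comparisons.

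**Figure D2:**
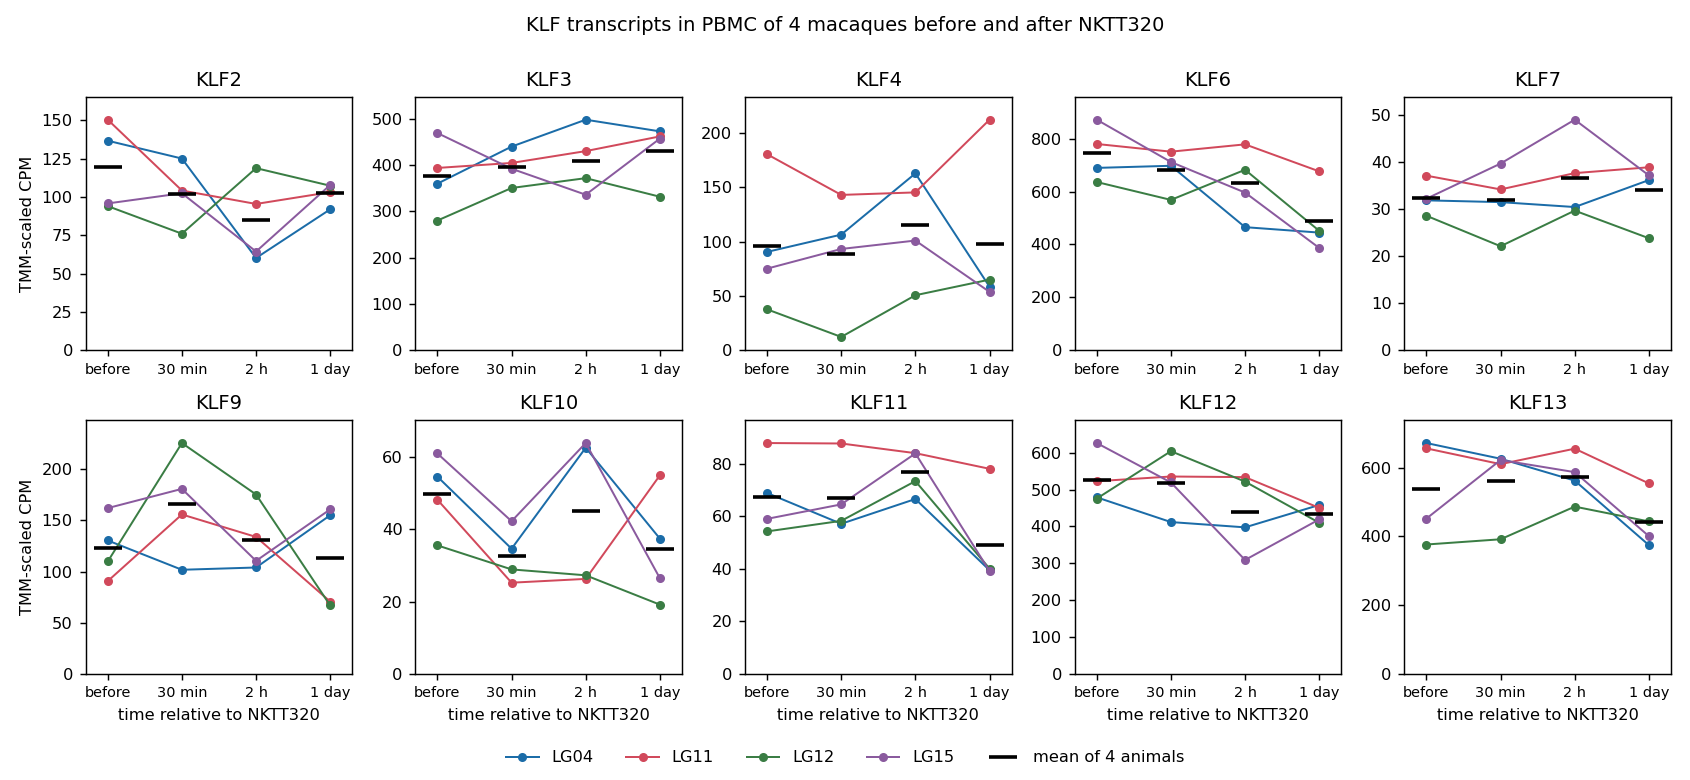
TMM-scaled CPM of each KLF gene (vertical axes from 0) before NKTT320 and at 30 minutes, 2 hours and 1 day, with 1 line per animal and a black bar at the mean of 4 animals. KLF6 and KLF11 end lower at 1 day than before NKTT320 in all 4 animals, while KLF4 keeps LG11 on top at 3 of 4 times.

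The activators are described first. KLF6 stood at 445, 676, 452 and 387 CPM at 1 day in LG04, LG11, LG12 and LG15, against 689, 779.6, 636 and 871 CPM before NKTT320. In between it stood at 697, 750.5, 568 and 712 CPM at 30 minutes and at 465, 778, 682 and 596 CPM at 2 hours. KLF6 was lower at 1 day in all 4 animals, with the largest gap in LG15 and the smallest in LG11, whose 1 day value lay inside the range of the samples before NKTT320. The mean was 489.8 ± 127.6 CPM at 1 day and 744 ± 103.5 CPM before NKTT320 (SD, n = 4 each). The log2 difference was -0.62 ± 0.17 (SE; 95% interval -0.99 to -0.25), which is 1.54-fold lower, with an edgeR adjusted p of 0.121. DESeq2 gave -0.60 ± 0.18 (SE) with an adjusted p of 0.0247, and this was the only alternative to pass the threshold. Against 30 minutes the difference at 1 day was -0.50 (adjusted p = 0.208 with edgeR), and against 2 hours it was -0.37 (adjusted p = 0.394 with edgeR). Both were negative in 4 of 4 animals. Without the 1 day library of LG04 the difference against before NKTT320 was -0.64 (edgeR adjusted p = 0.223).

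KLF2, the quiescence and trafficking factor, stood at 60.2, 95.5, 119 and 64.5 CPM at 2 hours in LG04, LG11, LG12 and LG15, against 137, 150.5, 94.1 and 95.8 CPM before NKTT320. LG04, LG11 and LG15 were lower at 2 hours and LG12 was higher. The log2 difference was -0.48 ± 0.23 (SE; 95% interval -0.98 to 0.01; edgeR adjusted p = 0.676). By 1 day the 4 libraries had drawn together at 92.0 to 108 CPM, with a mean of 103 ± 7.38 CPM against 119 ± 28.6 CPM before NKTT320 (SD, n = 4 each). The interval of that difference, -0.70 to 0.30 on the log2 scale, allows both a lower and a higher level.

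KLF2's known target S1PR1, the receptor that lets T cells leave lymphoid tissue, stood at 169, 103, 122 and 170.4 CPM at 2 hours, against 272, 214, 219 and 265 CPM before NKTT320. The log2 difference was -0.81 ± 0.15 (SE) with an edgeR adjusted p of 0.149. At 1 day it was -0.63 ± 0.15 (adjusted p = 0.0925 with edgeR). Cell-type markers also differed at 2 hours against before NKTT320, with 0 calls. All 19 T-cell markers were lower (median log2 difference -0.38), as were 11 of 13 tested B-cell markers (median -0.42). All 17 monocyte markers were higher (median 1). The part of cell makeup in the KLF2 and S1PR1 values was not tested. S1PR1, CCR7, IL7R and ITGB7, genes that depend on KLF2 in T cells mostly from work in mice, gave 0 calls with edgeR and adjustment over all genes in either direction at any time. ITGB7, an integrin subunit of gut homing, averaged 91.0 ± 21.6 CPM at 2 hours against 115 ± 12.9 CPM before NKTT320 (SD, n = 4 each). It was lower in 4 of 4 animals, as were 6.52% of all genes (edgeR adjusted p = 0.613). The means of CCR7 and IL7R were not lower at 2 hours. CCR7 averaged 102 ± 32.6 CPM against 99.9 ± 24.3 CPM before NKTT320, and IL7R 296 ± 131 against 254 ± 39.7 CPM (SD, n = 4 each).

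KLF4, the monocyte factor, varied most of all 10. It stood at 58.5, 212, 65.0 and 53.7 CPM at 1 day in LG04, LG11, LG12 and LG15, against 90.5, 180.3, 37.7 and 75.1 CPM before NKTT320. At 30 minutes the values were 106, 143, 12.3 and 93.2 CPM, and at 2 hours they were 163, 145, 50.7 and 100.9 CPM. LG11 was highest at 3 of the 4 times and LG12 was lowest at 3 of them, so the highest library was 17.2-fold above the lowest. Of the spread of its log2 CPM over the 16 libraries, 67% lay between animals and 6.19% between times. None of its differences between times passed edgeR's test, and the 95% intervals against before NKTT320 were wide, from -0.98 to 0.65 at 30 minutes, -0.44 to 1.19 at 2 hours and -0.74 to 0.91 at 1 day on the log2 scale.

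The summed monocyte markers followed the same ranks at both ends. Their lowest sum was 795.8 CPM in LG12 at 30 minutes, the library with the lowest KLF4, and their highest was 11663 CPM in LG11 at 1 day, the library with the highest KLF4. By time, the sum ranged from 1183 to 5036 CPM before NKTT320, 795.8 to 7566 CPM at 30 minutes, 2172 to 9288 CPM at 2 hours and 1940 to 11660 CPM at 1 day. With this sum as a covariate the log2 difference of KLF4 at 2 hours against before NKTT320 was -0.36 in place of 0.37. All 17 markers had counts in at least 1 library.

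**Figure D3:**
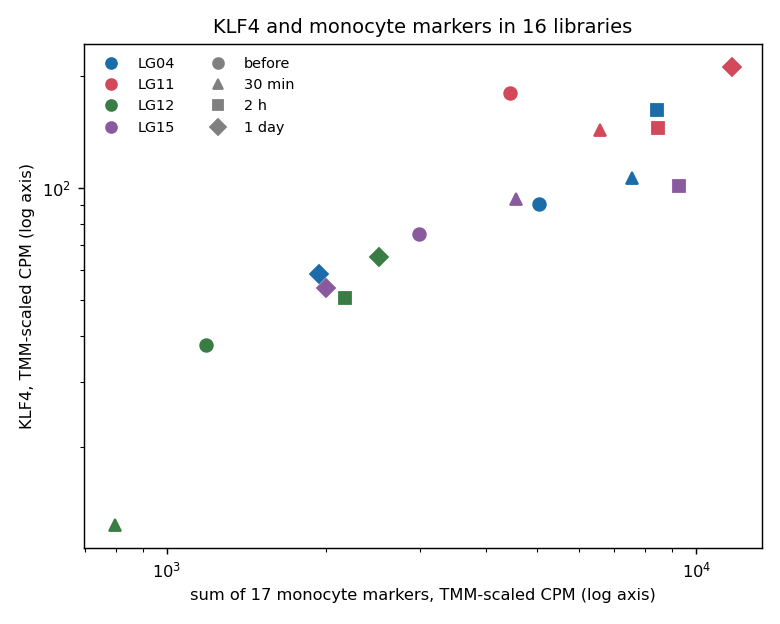
KLF4 against the sum of 17 monocyte markers in the 16 libraries, both as TMM-scaled CPM on log axes, with colours for animals and symbols for times. LG12 at 30 minutes is lowest on both axes (12.3 and 795.8 CPM) and LG11 at 1 day is highest on both (212 and 11663 CPM).

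KLF7, a widely expressed relative of KLF6, was the steadiest activator. Its range over 16 libraries was 22.1 to 49.0 CPM, from LG12 at 30 minutes to LG15 at 2 hours. Animals accounted for 69.4% of its spread, with means over the 4 times of 32.5 CPM in LG04, 36.9 CPM in LG11, 26.0 CPM in LG12 and 39.5 CPM in LG15. Its largest log2 difference against before NKTT320 was 0.15 ± 0.15 (SE; edgeR adjusted p = 0.859), at 2 hours, and this was -0.11 with library totals in place of TMM scaling.

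Both CtBP-binding repressors were among the more abundant members. KLF3, which shapes B-cell development in mice, stood at 472, 462, 331 and 457 CPM at 1 day in LG04, LG11, LG12 and LG15, against 359.6, 393.5, 280.1 and 469 CPM before NKTT320. It was higher in 3 of 4 animals, the groups overlapped and the log2 difference was 0.20 ± 0.15 (SE; 95% interval -0.12 to 0.52; edgeR adjusted p = 0.664), which was -0.079 with the sum of platelet markers as a covariate. The intermediate times lay between 336 and 498 CPM.

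KLF12, which restrains the AP-2alpha gene and takes part in natural killer cell proliferation in mice, stood at 458, 450.2, 409.8 and 419 CPM at 1 day, against 479, 523, 475 and 626 CPM before NKTT320. It was lower in all 4 animals and was the 1 member whose groups of libraries did not overlap in that comparison, a pattern in that direction found for 2.07% of all genes. The log2 difference was -0.28 ± 0.18 (SE; 95% interval -0.66 to 0.11; edgeR adjusted p = 0.582). Its lowest value at any time was 309 CPM, in LG15 at 2 hours, against 626 CPM in the same animal before NKTT320. T-cell markers had sums of 1792 to 2743 CPM at 1 day and 2356 to 3118 CPM before NKTT320, and their part in the KLF12 values was not tested.

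The SIN3-binding members comprised the glucocorticoid target KLF9, the TGF-beta inducible genes KLF10 and KLF11, and KLF13. KLF11 stood at 39.4, 78.1, 40.05 and 39.1 CPM at 1 day in LG04, LG11, LG12 and LG15, against 66.6, 84.0, 73.4 and 83.9 CPM at 2 hours. Before NKTT320 it had stood at 68.9, 87.9, 54.2 and 59.0 CPM, and at 30 minutes at 57.1, 87.7, 58.2 and 64.5 CPM. LG04, LG12 and LG15 lay within 1 CPM of each other at 1 day, below every library of the earlier times, while LG11 kept a value inside the earlier range.

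Against 2 hours the mean of KLF11 was 49.2 ± 19.3 CPM at 1 day and 77.0 ± 8.55 CPM at 2 hours (SD, n = 4 each). The log2 difference was -0.69 ± 0.16 (SE; 95% interval -1.03 to -0.35), 1.62-fold lower and negative in 4 of 4 animals, with an edgeR adjusted p of 0.158 and a DESeq2 adjusted p of 0.0311. Against before NKTT320 it was -0.48 ± 0.16 (SE; edgeR adjusted p = 0.17), and against 30 minutes -0.47 ± 0.16 (SE; edgeR adjusted p = 0.195), again negative in 4 of 4 animals. Without the 1 day library of LG04 the difference against 2 hours was -0.64 (edgeR adjusted p = 0.465). KLF11 and KLF6 had the largest shares of their spread between times among the members, 44.9% and 50.1%. The median over the 10 members was 23.5%, beside 12.2% over all genes tested.

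KLF10 stood at 34.65, 25.2, 28.9 and 42.3 CPM at 30 minutes in LG04, LG11, LG12 and LG15, against 54.6, 48.2, 35.6 and 61.05 CPM before NKTT320. It was lower in all 4 animals, as were 4.42% of all genes, and the groups overlapped. The log2 difference was -0.60 ± 0.29 (SE; 95% interval -1.23 to 0.04; edgeR adjusted p = 1), 1.51-fold lower. At 2 hours LG04 and LG15 were at 62.65 and 63.95 CPM while LG11 and LG12 stood at 26.3 and 27.3 CPM. At 1 day the values were 37.5, 55.0, 19.2 and 26.5 CPM, with LG11 highest.

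KLF9 in LG04 took a course opposite to that in LG11 and LG12, at 30 minutes and 1 day against before NKTT320. It stood at 102, 156, 226 and 181 CPM at 30 minutes in LG04, LG11, LG12 and LG15, against 130.4, 90.6, 109.8 and 162 CPM before NKTT320. LG11, LG12 and LG15 were higher and LG04 was lower, with a log2 difference of 0.44 ± 0.31 (SE; 95% interval -0.23 to 1.11; edgeR adjusted p = 1). At 2 hours the values were 104, 134, 175 and 110 CPM. At 1 day LG11 and LG12 were at 70.5 and 66.8 CPM, their lowest values, and LG04 was at 155 CPM, its highest. LG15 was at 161 CPM, close to its 162 CPM before NKTT320.

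KLF13 stood at 375, 554, 443 and 401 CPM at 1 day, against 562, 655, 487 and 587 CPM at 2 hours. It was lower in 4 of 4 animals, with a log2 difference of -0.36 ± 0.17 (SE; 95% interval -0.73 to 0.01; edgeR adjusted p = 0.409). Against before NKTT320 (672, 656, 376 and 452 CPM) the 1 day difference was -0.25 ± 0.17 (SE; edgeR adjusted p = 0.618) and was negative in 3 of 4 animals, but it was 0.23 with the platelet sum as a covariate. Over the 16 libraries, with log2 values centred on each animal's mean, KLF13 had a Pearson r of 0.86 with the summed neutrophil markers. With the platelet sum r was -0.777. These are descriptions, and the part of neutrophil RNA in the KLF13 values was not tested.

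**Figure D4:**
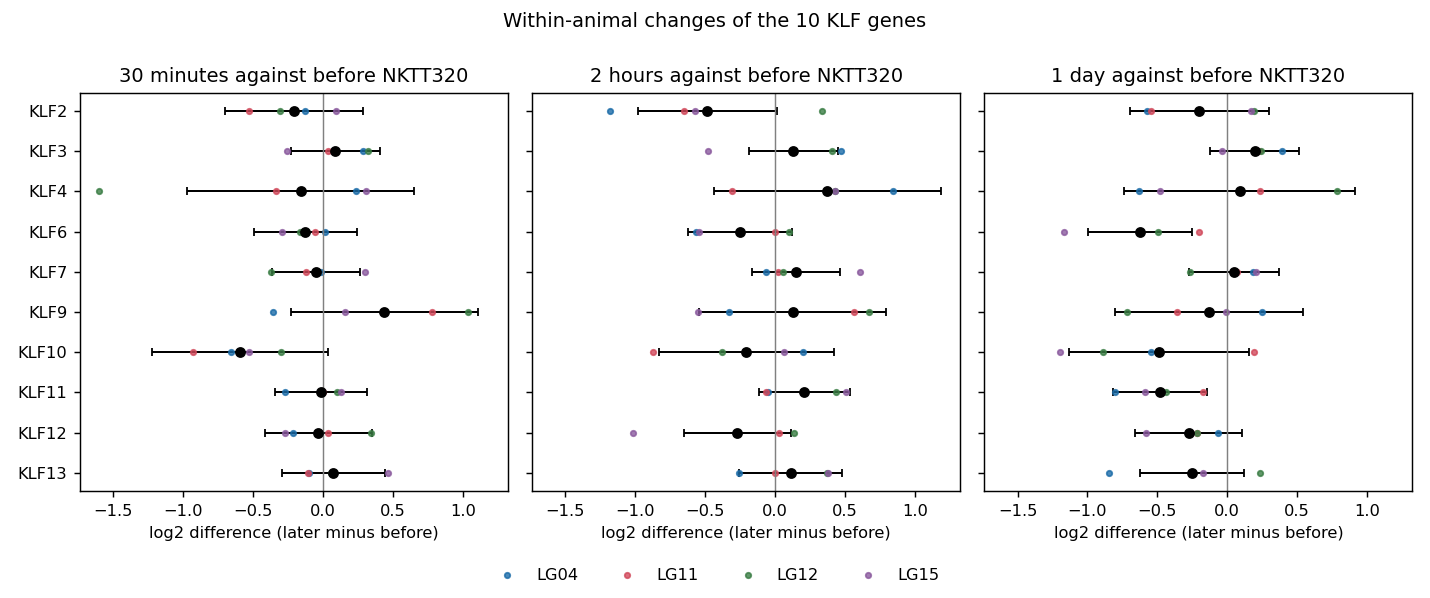
Log2 differences of each KLF gene at 30 minutes, 2 hours and 1 day, each minus the samples before NKTT320. Black points and bars are the edgeR estimate with its 95% interval, and coloured points are the 4 animals. At 1 day the intervals of KLF6 (-0.99 to -0.25) and KLF11 (-0.82 to -0.15) lie below 0, but neither gene passed the adjusted threshold.

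Counted over the members, 3 of 10 were lower in all 4 animals at 1 day than before NKTT320 (KLF6, KLF11 and KLF12), where 9.09% of all genes were. None was higher in all 4. For 1 day against 2 hours 3 of 10 were lower in all 4 animals (KLF6, KLF11 and KLF13), where 9.16% of all genes were, and for 1 day against 30 minutes 2 of 10 (KLF6 and KLF11), where 7.77% were. The median log2 difference of the members was -0.04 at 30 minutes, 0.12 at 2 hours and -0.23 at 1 day, beside 0.02, 0.02 and -0.00036 for all genes tested. These comparisons share their samples, so they are not separate evidence. All are relative to the bulk of genes: with library totals alone the median of all genes was -0.157 at 30 minutes, -0.264 at 2 hours and -0.208 at 1 day against before NKTT320, and KLF6 and KLF11 at 1 day stood at -0.80 and -0.69 on that scale.

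**Figure D5:**
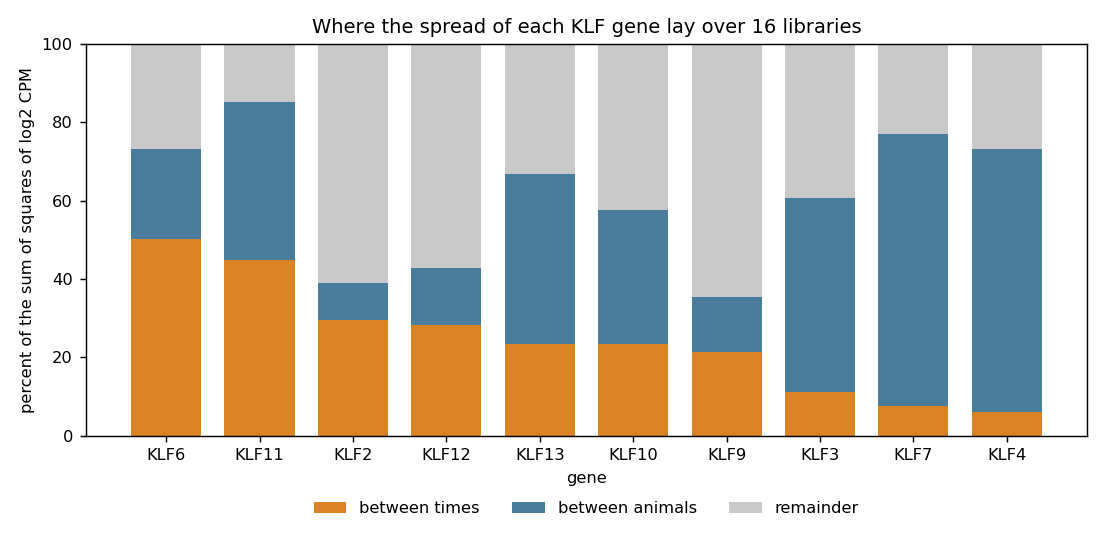
Share of the sum of squares of log2 CPM over 16 libraries that lay between the 4 times, between the 4 animals and in the remainder, as stacked bars to 100% for each KLF gene. KLF6 (50.1%) and KLF11 (44.9%) have the largest shares between times, and KLF7 (69.4%) and KLF4 (67%) the largest between animals.

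Other transcripts moved beside KLF6 and KLF11 at 1 day. KLF6 is itself an early-response gene in some cell types. All 18 immediate-early genes tested had a negative log2 difference at 1 day against before NKTT320, with a median of -1.11. Of them 4 passed edgeR's test, all lower, where 0.225% of all genes were called. NR4A2, an orphan nuclear receptor, stood at 37.5, 34.6, 38.9 and 30.03 CPM at 1 day, against 182, 172, 183 and 128 CPM before NKTT320, a log2 difference of -2.24 ± 0.18 (SE; edgeR adjusted p = 0.00022). FOS, NR4A3 and DUSP1 fell by 1.70, 2.42 and 1.20 on the log2 scale (edgeR adjusted p = 0.0148, 0.0148 and 0.0493), and lost these calls in 5, 5 and 8 of 15 alternatives, the fits without LG04 or without LG12 among them in each case. NR4A2 also fell at 1 day against 30 minutes and against 2 hours (edgeR adjusted p = 0.0294 and 0.0165). At 30 minutes and 2 hours against before NKTT320 none of the 18 passed edgeR's test. Their part in the KLF6 and KLF11 values was not tested.

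No gene of the 8 cell-type marker lists passed edgeR's test in any comparison, but some sums differed widely. The summed platelet markers were higher at 1 day in all 4 animals, from 828 to 32960 CPM, against 135 to 10010 CPM before NKTT320, and 11 of 11 tested platelet markers had a positive log2 difference. Of 12 listed, 8 had counts in all 16 libraries. Neutrophil markers summed to 134 to 321 CPM at 1 day, against 105 to 4920 CPM before NKTT320, and 9 of 10 tested had a negative log2 difference. With the platelet sum as a covariate the 1 day difference against before NKTT320 was -0.53 for KLF6 (edgeR adjusted p = 0.84) and -0.22 for KLF11 (edgeR adjusted p = 0.888). With the monocyte sum it was -0.64 and -0.51 (edgeR adjusted p = 0.0579 and 0.0732). The part of neutrophil RNA in the KLF6 and KLF11 values was not tested. LG11, the animal in which KLF6 and KLF11 differed least, had the highest monocyte sum at 1 day and the smallest platelet sum.

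Among the relatives of the 10 genes, 8 of 16 listed members of the KLF and SP families were expressed well enough to be tested (KLF1, KLF5, KLF8, KLF16, SP1, SP2, SP3 and SP4), and 0 passed in either direction at any time. Their median log2 difference at 1 day against before NKTT320 was -0.07. KLF8, the remaining CtBP-binding member, averaged 108 ± 3.15 CPM at 1 day against 77.4 ± 28.2 CPM at 2 hours (SD, n = 4 each; edgeR adjusted p = 0.277). SP4, an activator related to SP1, averaged 131 CPM at 1 day against 137 CPM before NKTT320 (edgeR adjusted p = 0.968).

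Genes known to act on or with the KLFs were tested from the same table. Of 8 CtBP and SIN3 corepressor genes, 7 genes of the MEK5-ERK5-MEF2 pathway that induces KLF2, 4 FOXO and FOXP1 genes, 5 ubiquitin ligases of KLF proteins, 11 genes of the TGF-beta and SMAD pathway that induces KLF10 and KLF11, and 8 glucocorticoid-induced genes that respond like KLF9, 0 passed in either direction in any of the 6 comparisons. Their median log2 differences at 1 day against before NKTT320 were -0.15, -0.19, 0.03, -0.10, -0.17 and -0.40 in that order, beside -0.00036 over all genes tested. Values follow for genes that led their lists by edgeR's p over the 4 times, as descriptions. An unadjusted edgeR p under 0.05 was held by 7.43% of all genes at 2 hours and 13.6% at 1 day, each against before NKTT320. SMAD7, the inhibitory SMAD, averaged 33.1 ± 6.5 CPM at 1 day against 88.2 ± 71.5 CPM before NKTT320 (SD, n = 4 each; edgeR adjusted p = 0.114). LG04 alone stood at 195 CPM before NKTT320, where the other 3 animals stood at 49.4 to 56.1 CPM. SMAD3, the transducer of TGF-beta receptor signals, averaged 133 ± 12.1 against 172 ± 34.5 CPM in the same comparison (edgeR adjusted p = 0.17). SIAH1, a ligase that marks KLF10 for degradation, averaged 21.3 ± 7.71 CPM at 1 day against 34.2 ± 4.25 CPM before NKTT320 (edgeR adjusted p = 0.0925). Its groups did not overlap, a pattern in that direction found for 2.07% of all genes.

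The regulators of KLF2 and the corepressors are given next. FOXO1, an activator of KLF2 in T cells, averaged 196 ± 39.2 CPM at 2 hours against 247 ± 35.3 CPM before NKTT320. It was lower in 4 of 4 animals, as were 6.52% of all genes (edgeR adjusted p = 0.535). Of the 4 FOXO and FOXP1 genes, 2 were higher and 2 lower in that comparison, with a median log2 difference of 0.14. MEF2C, which binds the KLF2 promoter in other cell types, averaged 172 ± 59.1 CPM at 2 hours against 128 ± 16.9 CPM before NKTT320 (edgeR adjusted p = 0.595). RCOR1, a scaffold of the CtBP complex, averaged 110.1 ± 20.6 CPM at 1 day against 83.8 ± 7.92 CPM before NKTT320 (edgeR adjusted p = 0.212).

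Of the 8 glucocorticoid-induced genes, 3 were higher and 5 lower at 2 hours than before NKTT320. At 1 day 2 were higher and 6 lower in the same comparison. FKBP5, a chaperone and classic glucocorticoid target like KLF9, stood at 417, 1070.2, 863 and 599.5 CPM at 2 hours in LG04, LG11, LG12 and LG15, against 322, 152, 234 and 232 CPM before NKTT320. The log2 difference was 1.58 ± 0.38 (SE; edgeR adjusted p = 0.243). CXCR4, a chemokine receptor raised by glucocorticoids in T cells, averaged 297 ± 7.12 CPM at 1 day against 524 ± 68.5 CPM before NKTT320 (SD, n = 4 each; edgeR adjusted p = 0.0755). KLF9 itself had its highest mean at 30 minutes, 166 ± 51.7 CPM against 123 ± 30.6 CPM before NKTT320 (SD, n = 4 each).

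For each KLF the genes most alike in course were found from log2 CPM centred on each animal's mean, over the 16 libraries and 9803 genes. These Pearson r values are descriptions, since the libraries share animals, depth and cell makeup. For KLF4 they were HMOX1 (r = 0.962), the haem oxygenase of macrophages, and SLC37A2 (r = 0.962), a sugar-phosphate transporter. For KLF12 they were ZC3HAV1 (r = 0.963) and DDX6 (r = 0.945), and for KLF11 they were POLA2 (r = 0.957) and ING2 (r = 0.919). KLF3 was closest to ATAD1 (r = 0.932) and ZNF33A (r = 0.903), and KLF13 to C11orf95 (r = 0.929) and ALOX5 (r = 0.911), the leukotriene-forming lipoxygenase of myeloid cells.

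KLF6 was closest to DBR1 (r = 0.921) and NUFIP1 (r = 0.911), KLF9 to GPRIN3 (r = 0.913) and CLIP4 (r = 0.893), and KLF2 to CDADC1 (r = 0.912) and HIST1H1E (r = 0.858). The lowest best matches were those of KLF7, with OSBPL2 (r = 0.853) and GLYR1 (r = 0.84), and of KLF10, with RRP36 (r = 0.844) and MRPL17 (r = 0.752). Among the 45 pairs of members the highest r was 0.729, between KLF11 and KLF13. KLF9 and KLF12 followed at 0.693 and KLF6 and KLF11 at 0.629, and the lowest was -0.715, between KLF4 and KLF9. KLF11 and KLF13 are both of the SIN3-binding group. The other pairs within that group ran from -0.255 (KLF9 and KLF10) to 0.571 (KLF10 and KLF11).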

How the data were processed

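Per the labels' protocols, total RNA of snap-frozen, unsorted PBMC was depleted of ribosomal RNA, made into stranded libraries and sequenced as 75-cycle single reads. Tools in the submitters' processing notes are STAR, HTSeq, Trimmomatic, FastQC, edgeR and DESeq, with hg19 and GRCh37, both human, as builds. Versions, settings and annotation were not given in the sources used here. The deposited per-animal tables hold the authors' raw counts per gene and their FPKM values per gene. Where a symbol had several entries, their counts were summed. The 24 count columns of the table for the whole series were compared with the per-animal tables: 23 matched, and the column named for LG04 at 2 hours held the LG04 1 day values, so the per-animal tables were used throughout.

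Genes were filtered with filterByExpr, scaled by TMM and tested with edgeR 4.0.16 (quasi-likelihood F test, R 4.3.3) in a model of time and animal with 9 residual degrees of freedom. All p-values were adjusted by Benjamini-Hochberg over 11545 genes, and intervals are 95%. DESeq2 1.42.0 was an alternative. The other alternatives were 2 scalings, 2 filters on low counts, no animal term, globin genes left out, the 4 shallowest libraries or the 1 day library of LG04 left out, platelet or monocyte sums as covariates, and each animal left out. Libraries were paired by the animal named in their labels (median correlation of their deviations 0.547, over 0.1 in 23 of 24 pairs). The labels of the LG04 and LG15 libraries at 1 day were taken as given, though each lay nearer to the other than to any library of its own animal. The 1 day library of LG15 was not left out on its own. No 2 of the 16 libraries agreed within sampling noise: the smallest chi-square per gene over 120 pairs was 5.15. The edgeR p-values rest on the spread left after time and animal. It was estimated from all 16 libraries of these 4 animals together and drawn toward that of other genes. Limits from counts cover counting error only. The fit was also run on simulated counts that held no animal effect, so that run cannot check the pairing.

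The 10 members and all gene lists were chosen with earlier results of these data known. Named genes were all 10 members, up to 4 genes of each list that passed (or up to 3 with the smallest p over the 4 times), and the 2 genes most like each member. A gene of the lists is not reported here.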

Additional observations from a re-analysis of the deposited data

Results flagged for a closer look

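Of the 40 sets of 4 libraries formed by the 10 KLF genes and 4 times, 4 held a library whose gap to its nearest neighbour exceeded Dixon's 95% critical value for 4 values. Chance gives about 1 in 20 such sets, and no explanation was tested. KLF4 stood at 212 CPM in LG11 at 1 day, where the others stood at 53.7 to 65.0 CPM. KLF11 stood at 78.1 CPM in the same library, where the others stood at 39.1 to 40.05 CPM. KLF3 stood at 331 CPM in LG12 at 1 day, where the others stood at 457 to 472 CPM. KLF13 stood at 391.5 CPM in LG12 at 30 minutes, where the others stood at 610.3 to 626 CPM.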

How the results depend on the processing

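The count of KLF genes called was 0 in every comparison under all 15 alternatives except DESeq2's test, which called 1 at 1 day against before NKTT320 (KLF6) and 1 at 1 day against 2 hours (KLF11). KLF6 at 1 day against before NKTT320 ranged from -0.80 to -0.43 on the log2 scale (adjusted p 0.0247 to 0.84) and KLF11 from -0.69 to -0.22 (0.0732 to 0.888), and KLF11 at 1 day against 2 hours from -0.87 to -0.46 (0.0311 to 0.999). Without the animal as a replicate block, KLF6 at 1 day was -0.60 (adjusted p = 0.7) and no KLF difference turned its sign, while the genes called at 1 day against before NKTT320 numbered 3 in place of 26. That count was also 400 with DESeq2, 70 without a filter, 0 without the 4 shallowest libraries, 1 with the platelet sum, 349 with the monocyte sum, 46 with library totals alone and 1 to 67 with an animal left out (67 without LG15). With library totals alone, chosen after seeing the data, the median of all genes against before NKTT320 was -0.157 at 30 minutes, -0.264 at 2 hours and -0.208 at 1 day, where TMM gave 0.0182, 0.0206 and -0.00036.

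Signs turned in 33 combinations of a difference and an alternative, which covered 18 of the 30 KLF differences against before NKTT320, and the cause was not tested. With library totals alone they were KLF3 -0.086 and KLF13 -0.12 at 30 minutes, KLF3 -0.16, KLF7 -0.11, KLF9 -0.14, KLF11 -0.078 and KLF13 -0.18 at 2 hours, and KLF4 -0.10 and KLF7 -0.14 at 1 day. With the platelet sum they were KLF7 0.0093 and KLF11 0.058 at 30 minutes, and KLF2 0.33, KLF3 -0.079 and KLF13 0.23 at 1 day. With the monocyte sum they were KLF12 0.012 at 30 minutes, KLF4 -0.36 and KLF13 -0.11 at 2 hours, and KLF4 -0.14 at 1 day. Without the 4 shallowest libraries they were KLF4 0.053 and KLF7 0.023 at 30 minutes, and without the 1 day library of LG04 KLF7 was -0.013 at 1 day. With an animal left out, ranges at 30 minutes were -0.021 to 0.21 for KLF3, -0.37 to 0.049 for KLF4, -0.17 to 0.020 for KLF7, -0.082 to 0.046 for KLF11, -0.19 to 0.054 for KLF12 and -0.061 to 0.11 for KLF13. They were -0.090 to 0.33 for KLF9 at 2 hours, and at 1 day -0.18 to 0.24 for KLF4, -0.0060 to 0.18 for KLF7 and -0.31 to 0.039 for KLF9.

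Of the immediate-early genes, NR4A2 at 1 day against before NKTT320 passed in 14 of 15 alternatives (all but the fit without the 4 shallowest libraries), FOS and NR4A3 in 10 each and DUSP1 in 7. FOS lost its call without LG04 or LG12, NR4A3 without LG04, LG11 or LG12, and DUSP1 whichever animal was left out. NR4A2 passed against 30 minutes in 9 and against 2 hours in 8 of 15, and lost both calls without LG11, LG12 or LG15. The shallowest library, LG12 at 1 day, held 1417467 counts.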
